A study of Mus musculus with 17 samples.

Results

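The transcription factors of naive pluripotency examined here were Nanog, Esrrb, Klf2, Klf4, Klf5, Tfcp2l1, Zfp42, Tbx3, Prdm14 and Nr5a2. They were taken by gene symbol from the 54532 genes of the expression table, and each of the 10 members was among the 21871 genes that passed the filter on low values, a TPM of at least 1 in at least 2 libraries. By the GENCODE M21 annotation of GRCm38 they are protein-coding genes at chromosome 6, 122707489 to 122714633 (Nanog), chromosome 12, 86361117 to 86521628 (Esrrb), chromosome 8, 72319033 to 72321656 (Klf2), chromosome 4, 55527143 to 55532466 (Klf4) and chromosome 14, 99298691 to 99315036 (Klf5). The others lie at chromosome 8, 43295063 to 43306980 (Zfp42), chromosome 5, 119670669 to 119684724 (Tbx3), and, all on chromosome 1, at 118627945 to 118685168 (Tfcp2l1), 13113457 to 13127163 (Prdm14) and 136842571 to 136960448 (Nr5a2). TPM is a read count corrected for gene length and scaled to the same total in every library, so each value is a share of its library. Differences between libraries therefore also depend on the scaling, and other scalings are described in the closing section.

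The cells were R1/E mouse embryonic stem cells, wild-type or carrying a Usb1 knockout made with CRISPR/Cas9 in the same line. They were harvested without retinoic acid (RA) at day 0, or after 1 or 3 days of RA, a vitamin A derivative commonly used to make embryonic stem cells leave self-renewal; the RA dose and the medium are not given in the sources used here. The wild-type day 0 group had 2 libraries and each of the other 5 groups (wild-type day 1 and day 3, knockout day 0, day 1 and day 3) had 3, which made 17 libraries of total RNA. The knockout libraries came from 1 clonal line, so the loss of Usb1 and the particular clone cannot be told apart. The study calls its replicates biological, but whether they were separate differentiations was not stated, so the p-values measure the spread between these libraries.

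Naive pluripotency is the state of the early epiblast and of mouse embryonic stem cells kept under leukemia inhibitory factor (LIF). A web of transcription factors holds it: Pou5f1 (Oct4) and Sox2 form the core, and around them factors such as Nanog, Esrrb, the Klf proteins and Tfcp2l1 bind one another's enhancers and connect the core to LIF/STAT3, Wnt and MEK signalling. These outer factors are lost when cells leave the naive state, whereas the core genes are shared with later, primed cells. RA acts through nuclear receptors and, in embryonic stem cells without further guidance, is known to give rise to extraembryonic endoderm among other fates.

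Usb1, the enzyme that trims the oligo(U) tail of U6 snRNA, was read first as a check of the labels. Its TPM was 40.0 and 37.1 in wild-type cells at day 0 and 15.5, 15.2 and 17.9 in the knockout, and the knockout lay lower by 1.20 on the log2 scale at day 0 (limma adjusted p = 3.23e-05), by 1.34 at day 1 (limma adjusted p = 1.97e-06) and by 0.93 at day 3 (limma adjusted p = 9.37e-05), with no overlap between the genotypes on any day. Reads assigned to genes ranged from 15404379 to 17300186 per library. Wild-type day 0 replicate 1 stood apart: only 239 genes in it had exactly 1 read, where the other 16 had 1224 (knockout day 3 replicate 1) to 2467. Without the former, the number of members called was unchanged in every comparison but the change of pace in wild-type cells, where it was 8 and not 9. Without the latter it was unchanged but for the difference between genotypes from day 0 to day 3, where it was 4 and not 3. The summed TPM of 5 stem cell markers (Pou5f1, Sox2, Utf1, Dppa5a and Fbxo15) was 7674 to 7798 in wild-type and 7149 to 7970 in knockout cells at day 0, and none of the 5 was at 0 in any group, so the markers of the labelled cell type were present.

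Before RA the members covered a broad range of levels and held nearly the same order in both genotypes. Zfp42 (Rex1), a zinc finger protein used as the classical reporter of the naive state, was the most abundant member, with a TPM of 1285 and 1238 in wild-type cells and of 1218, 1311 and 1272 in the knockout. Nanog, the homeodomain factor that lets cells self-renew without LIF when it is overexpressed, followed at 803 and 836, and at 764, 809 and 860. These were the top 2 members in both genotypes, and neither overlapped with the next member in order. Klf5, Klf2 and Esrrb came next in wild-type cells with means of 479 ± 51.5 (SD, n = 2), 464 ± 8.60 and 440 ± 14.0 TPM, of which Klf5 and Klf2 overlapped and Klf2 and Esrrb did not. Tfcp2l1 and Klf4 overlapped at 302 ± 2.48 and 302 ± 31.7 TPM, Tbx3 stood at 171 ± 2.63, and Nr5a2 and Prdm14 overlapped at the low end at 54.8 ± 4.44 and 51.7 ± 4.24. In the knockout the order was Zfp42, Nanog, Klf2, Esrrb, Klf5, Tfcp2l1, Klf4, Tbx3, Prdm14 and Nr5a2, with no overlap between any neighbours. Summed over the 10 members, the TPM was 4292 to 4398 in wild-type and 4378 to 4604 in knockout cells at day 0.

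The stretches of DNA just upstream of 4 members are shown for description. A relation of these letters to the speed of loss, which is described next, was not tested. Each is the 250 bases before the RefSeq transcription start in GRCm38.p6, printed 5′ to 3′ on the strand of the gene. Nanog lies at chr6:122707239-122707488 (plus strand), Esrrb at chr12:86360867-86361116 (plus), Tfcp2l1 at chr1:118627695-118627944 (plus) and Zfp42 at chr8:43307010-43307259 (minus). Capitals mark a match, on either strand, to a Klf-type motif (GGGNGTGG), to a STAT motif (TTCNNNGAA, in Esrrb only) or to the octamer bound by POU proteins (ATGCAAAT, in Zfp42 only).
Nanog: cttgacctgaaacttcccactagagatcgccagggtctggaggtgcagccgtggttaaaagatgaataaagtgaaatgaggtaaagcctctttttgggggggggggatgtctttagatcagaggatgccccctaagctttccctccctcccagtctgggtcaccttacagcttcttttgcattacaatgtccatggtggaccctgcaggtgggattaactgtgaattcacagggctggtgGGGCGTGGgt
Esrrb: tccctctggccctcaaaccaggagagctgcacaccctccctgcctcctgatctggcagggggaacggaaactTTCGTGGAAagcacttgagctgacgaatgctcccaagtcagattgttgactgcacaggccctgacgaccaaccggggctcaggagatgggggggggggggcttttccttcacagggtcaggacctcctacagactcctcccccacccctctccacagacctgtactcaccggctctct
Tfcp2l1: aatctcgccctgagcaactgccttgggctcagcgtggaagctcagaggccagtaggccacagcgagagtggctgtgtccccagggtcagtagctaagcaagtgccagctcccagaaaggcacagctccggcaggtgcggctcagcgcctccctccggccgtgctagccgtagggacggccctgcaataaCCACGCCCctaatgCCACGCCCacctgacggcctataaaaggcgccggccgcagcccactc
Zfp42: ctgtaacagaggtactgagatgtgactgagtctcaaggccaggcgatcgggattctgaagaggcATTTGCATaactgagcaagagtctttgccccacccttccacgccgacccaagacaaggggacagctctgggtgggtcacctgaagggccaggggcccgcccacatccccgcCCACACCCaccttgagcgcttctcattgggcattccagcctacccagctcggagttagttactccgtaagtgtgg

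RefSeq windows were found for 7 of the 10 members (10 windows, since Nanog, Esrrb and Nr5a2 have 2 starts each); Klf5, Tbx3 and Prdm14 had no entry. The Klf-type motif occurred in 5 of the 10 windows, both of Nanog (which overlap) and 1 each of Nr5a2, Tfcp2l1 and Zfp42, against 15.9% of 32851 windows of the same length over all genes. In Tfcp2l1 it occurred in 2 copies, 61 and 47 bases before the start, in Zfp42 75 bases before and in Nanog 10 bases before the start shown. The STAT motif, which reads the same on both strands, was found 178 bases before the start of Esrrb and in 7.02% of all windows. The octamer was found 186 bases before the start of Zfp42 and in 1.60% of all windows. None of the members' windows held the extended nuclear receptor half-site TCAAGGTCA, which was in 0.387% of all windows, nor direct repeats of AGGTCA spaced by 5 or by 2 bases, the RA receptor type, which were in 0.00913% of all windows each. Such matches describe these letters in this window and no binding was measured. Only exact copies of the half-site and the repeats were searched, and at shares this low their absence from 10 windows says little. The windows of Klf4 and Klf2 were the richest in G and C, at 74.0% and 71.2%, and those of Tfcp2l1, Esrrb, Zfp42 and Nanog shown above stood at 65.2%, 60.8%, 58.4% and 52.0%, where the median over all genes was 52.4%.

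In wild-type cells 1 day of RA split the members into an early group and a late group. Of the 10 members, 6 were called lower (adjusted p below 0.05 and a change of at least 2-fold): Klf4, Zfp42, Esrrb, Klf5, Tfcp2l1 and Prdm14. Over all genes tested 3.88% were called lower in that comparison. The median change was -1.62 on the log2(TPM + 1) scale over the members and 0.18 over all genes, so the general drift of the table was upward while the members went down. In bulk RNA fewer naive cells and less RNA per cell cannot be told apart.

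Klf4, a zinc finger activator downstream of LIF/STAT3, had the lowest share left after the first day. Its TPM was 279 and 324 at day 0 and 62.8, 58.7 and 64.0 at day 1, a change of -2.27 ± 0.08 (SE) in log2 (limma adjusted p = 1.06e-10) that left 20.5% ± 1.61 (SE) of the starting level. Its later course was flat: the day 3 values of 57.6, 58.9 and 57.4 overlapped those of day 1, and the step from day 1 to day 3 was -0.09 ± 0.07 (limma adjusted p = 0.367). Day 1 thus held 96.2% of the whole log2 change over 3 days.

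Klf5, a relative that shares targets with Klf4 and Klf2, went the same way with a slower tail. It stood at 442 and 515 TPM at day 0, at 160, 140 and 147 at day 1, and at 75.9, 77.7 and 84.7 at day 3. The log2 change was -1.68 ± 0.09 by day 1 and -2.57 ± 0.09 by day 3, and 65.2% of it was made by day 1.

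Zfp42 and Tfcp2l1 lost about equal parts before and after day 1 on the log2 scale. Zfp42 fell from 1285 and 1238 TPM to 296, 296 and 280 at day 1 and to 63.4, 68.3 and 57.7 at day 3. Its log2 change was -2.11 ± 0.07 by day 1 and -4.30 ± 0.07 by day 3, with 49.1% of it reached at day 1. Tfcp2l1, a CP2-family factor and another direct target of STAT3, fell from 300.2 and 304 to 106, 87.4 and 93.5 and then to 27.0, 25.3 and 29.6, by 1.65 ± 0.13 and 3.42 ± 0.13 on the log2 scale, with 48.3% of the change made by day 1. No library of one day overlapped with a library of another for either gene.

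Esrrb, an orphan nuclear receptor that acts downstream of Wnt signalling, had both a fast start and the deepest end. Its TPM was 430 and 450 at day 0, 117, 110 and 109 at day 1, and 3.82, 3.50 and 3.18 at day 3. The log2 change was -1.97 ± 0.10 by day 1 and -6.62 ± 0.10 by day 3 (limma adjusted p = 5.24e-15), so that 25.4% ± 0.79 of the level was left on day 1 and 0.796% ± 0.046 on day 3, a 126-fold drop and the largest among the members in wild-type cells. At that point Esrrb still rested on 83 to 107 reads per library.

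Prdm14, which represses Fgf receptor signalling and DNA methyltransferases in naive cells, had the lowest level of all members at the end. It fell from 54.7 and 48.7 TPM to 19.7, 14.7 and 15.6 and then to 1.35, 0.495 and 0.995, the last resting on 6 to 16 reads per library. On the log2(TPM + 1) scale the change was -1.58 ± 0.17 by day 1 and -4.78 ± 0.17 by day 3. The added pseudocount of 1 understates the change of so low a gene: by TPM alone 1.83% ± 0.49 of the day 0 level was left, a 54.6-fold drop.

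The late group was Klf2, Nr5a2 and Nanog. Klf2, the Klf factor tied to MEK inhibition and the ground state, had 470 and 458 TPM at day 0, 235, 247 and 240 at day 1, and 23.1, 30.4 and 22.7 at day 3. Its first-day change of -0.95 ± 0.10 (limma adjusted p = 3.91e-06) passed the test but not the 2-fold threshold, and by day 3 it was -4.15 ± 0.10. In the limma voom fit on recovered reads the first-day change was -1.05 ± 0.09 and was called, so the place of Klf2 in the late group rests on the threshold. Nr5a2, an orphan nuclear receptor that binds the Pou5f1 regulatory region, went from 57.9 and 51.7 to 39.6, 31.7 and 33.6 and then to 5.20, 5.41 and 5.94, changes of -0.64 ± 0.14 (limma adjusted p = 0.00235) and -3.10 ± 0.14.

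Nanog was the slowest to leave and then among the quickest. It stood at 803 and 836 TPM at day 0, still at 690, 715 and 734 at day 1, and at 23.5, 24.2 and 20.2 at day 3. The groups of day 0 and day 1 did not overlap, but the change of -0.20 ± 0.08 was close to the threshold (limma adjusted p = 0.0476), and it missed it when any of these 5 libraries was left out (limma adjusted p = 0.0599 to 0.175). From day 1 to day 3 Nanog then fell by 4.92 ± 0.07, and 2.76% ± 0.16 of the day 0 level was left. Only 3.93% of its log2 change fell in the first day.

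Tbx3, a T-box factor that sustains Nanog in naive cells but is also known in early endoderm, went up. Its TPM was 170 and 173 at day 0, 337, 297 and 326 at day 1, and 223, 206 and 238 at day 3. The change was 0.89 ± 0.09 by day 1 (limma adjusted p = 2.44e-06), followed by a partial return of -0.52 ± 0.08 from day 1 to day 3 (limma adjusted p = 7.52e-05) that left it 0.37 ± 0.09 above day 0 (limma adjusted p = 0.00251). None of these steps reached 2-fold. At day 3 Tbx3 was therefore the most abundant member, with 43.8% of the members' summed TPM, against 3.95% at day 0. Its exons overlap those of the antisense gene Tbx3os1, and whether the counting used strand was not stated in the sources used here.

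**Figure D1:**
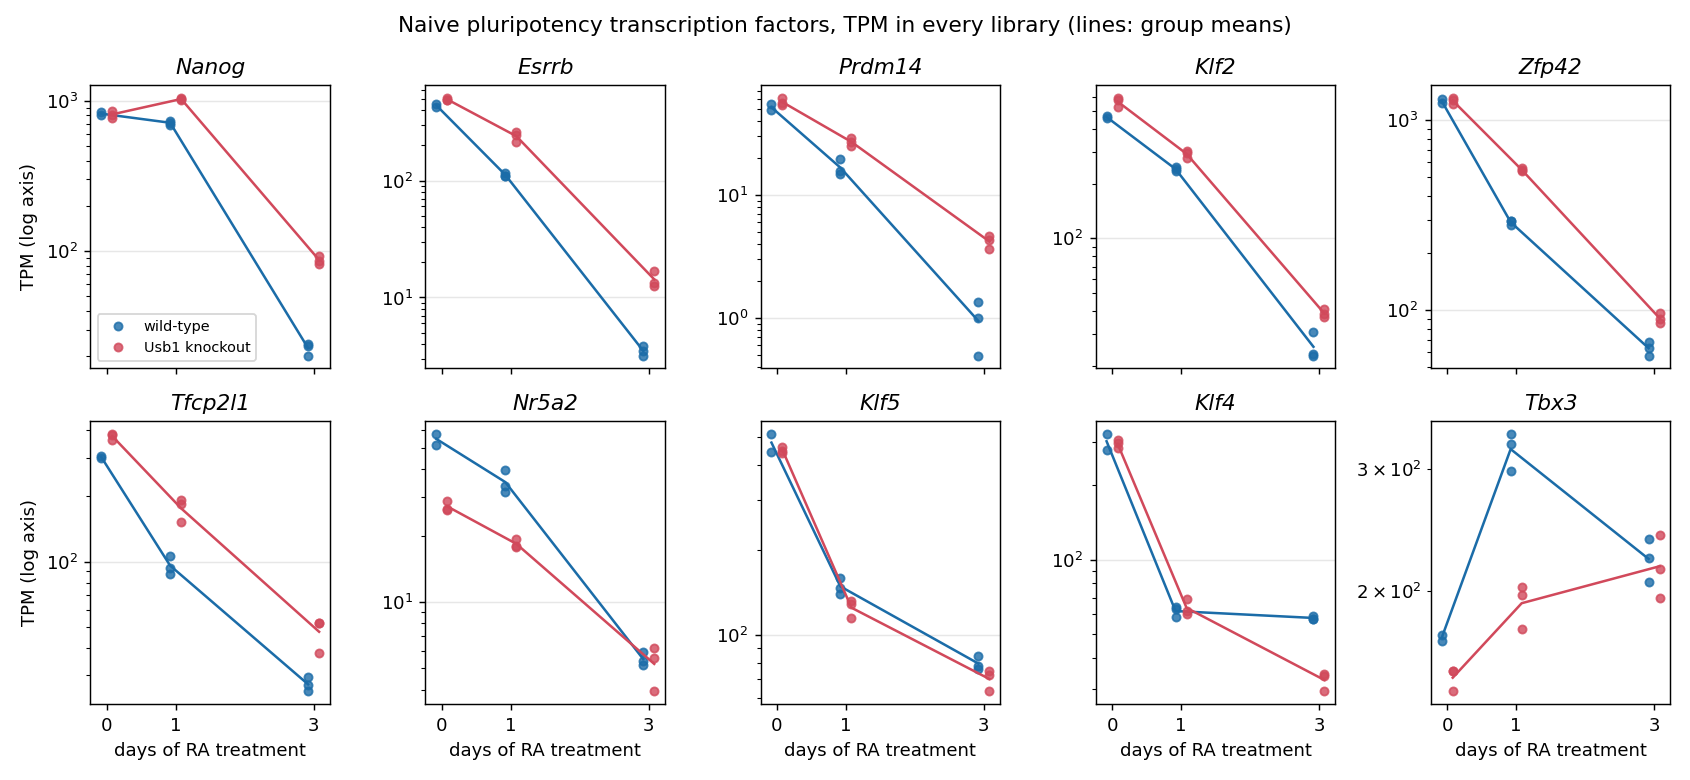
TPM (log axis) of each member in every library against days of RA treatment, with wild-type libraries in blue, Usb1 knockout libraries in red and lines through the group means. Wild-type Esrrb ends at 3.18 to 3.82 TPM, Klf4 is level between day 1 and day 3 in wild-type cells, and Tbx3 lies above its day 0 values throughout.

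By day 3, 9 of the 10 members were called lower in wild-type cells, all except Tbx3, where 9.68% of all genes were. Between day 1 and day 3 alone 7 members were called lower (Nanog, Esrrb, Klf2, Prdm14, Nr5a2, Zfp42 and Tfcp2l1), against 7.54% of all genes. Ordered by what was left at day 1, Klf4 (20.5%), Zfp42 (23.1%) and Esrrb (25.4%) came first. Here and in the order at day 3, overlap refers to the treated libraries divided by the day 0 mean and leaves out the spread at day 0. By that measure these 3 did not overlap, but with the day 0 spread in the error Klf4 (20.5% ± 1.61) and Zfp42 (23.1% ± 0.60) were not separated. Klf5, Tfcp2l1 and Prdm14 (31.1%, 31.7% and 32.3%) could not be separated, and Klf2 (51.8%), Nr5a2 (63.8%), Nanog (87.0%) and Tbx3 (187%) followed without overlap. At day 3 the order was another: Esrrb (0.796%), Prdm14 (1.83%) and Nanog (2.76%) had least left, with Prdm14 and Nanog overlapping, then Zfp42 and Klf2 (5.01% and 5.47%, overlapping), Tfcp2l1 and Nr5a2 (9.04% and 10.1%, overlapping), Klf5 (16.6%) and Klf4 (19.2%). By mean share left, Klf4 was the lowest of the members at day 1 and the highest at day 3 except for Tbx3. With the day 0 spread in the error, Klf4 (19.2% ± 1.43) and Klf5 (16.6% ± 1.38) were not clearly separated at day 3.

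**Figure D2:**
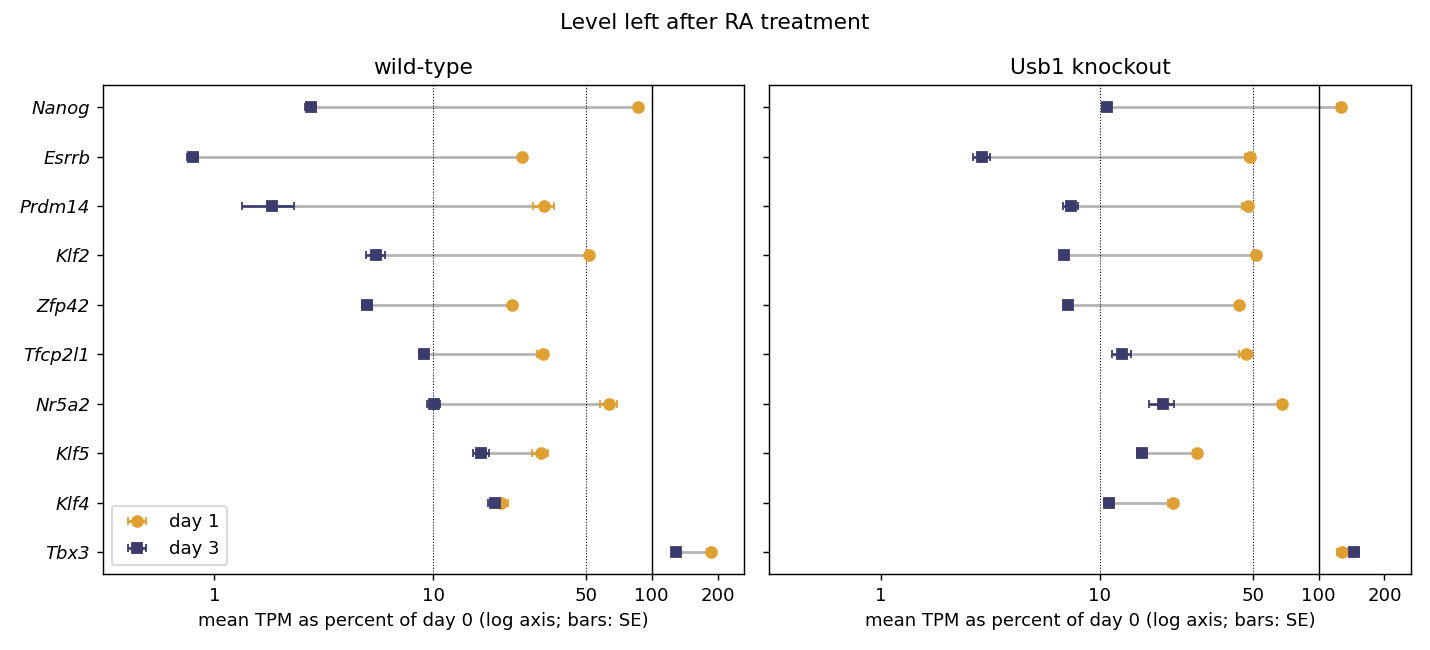
Percent of the day 0 mean TPM left at day 1 and day 3 of RA for each member (log axis), in wild-type (left) and Usb1 knockout cells (right), with orange circles for day 1, dark squares for day 3, SE bars and dotted lines at 10% and 50%. Wild-type Esrrb and Prdm14 reach 0.796% and 1.83%, whereas Klf4 and Klf5 remain at 19.2% and 16.6%.

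The pace was tested directly as the log2 change per day from day 1 to day 3 minus that of the first day. For a member that fell from the first day, a value below 0 means that the loss sped up after day 1. A call here needed an adjusted p below 0.05 alone. In wild-type cells 9 members had a change of pace. Nanog sped up most (-2.26 ± 0.09, limma adjusted p = 6.29e-10), and Klf2 (-0.66 ± 0.12), Nr5a2 (-0.59 ± 0.18) and Esrrb (-0.36 ± 0.13, limma adjusted p = 0.0476) sped up too. Tbx3 also had a negative value (-1.16 ± 0.11) since it rose and then fell. Klf4 (2.22 ± 0.11), Klf5 (1.23 ± 0.11), Zfp42 (1.02 ± 0.08) and Tfcp2l1 (0.77 ± 0.16) slowed down. On the log2(TPM + 1) scale Prdm14 lost 1.58 and then 1.60 per day, and its difference of -0.02 ± 0.21 did not pass (limma adjusted p = 0.968). The pseudocount understates the later loss of so low a gene. On recovered reads the difference was -0.31 ± 0.27 (limma voom adjusted p = 0.406), and with quantile normalization or equal medians it lay above 0. An even pace of Prdm14 is therefore not shown. Over all genes 22.0% had a call below 0 and 10.2% a call above 0, so the 5 members below 0 and 4 above 0 stand against a background in which such changes were common. The call for Esrrb was lost in 7 of the 8 fits that left out a wild-type library, with limma adjusted p = 0.144 without wild-type day 0 replicate 1 and 0.149 without wild-type day 1 replicate 1, and that for Nr5a2 was lost without wild-type day 0 replicate 2 or wild-type day 1 replicate 1 (limma adjusted p = 0.0704 and 0.104). The calls for Klf2 and Nr5a2 also ended when library medians were set equal (limma adjusted p = 0.0507 and 0.0510).

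**Figure D3:**
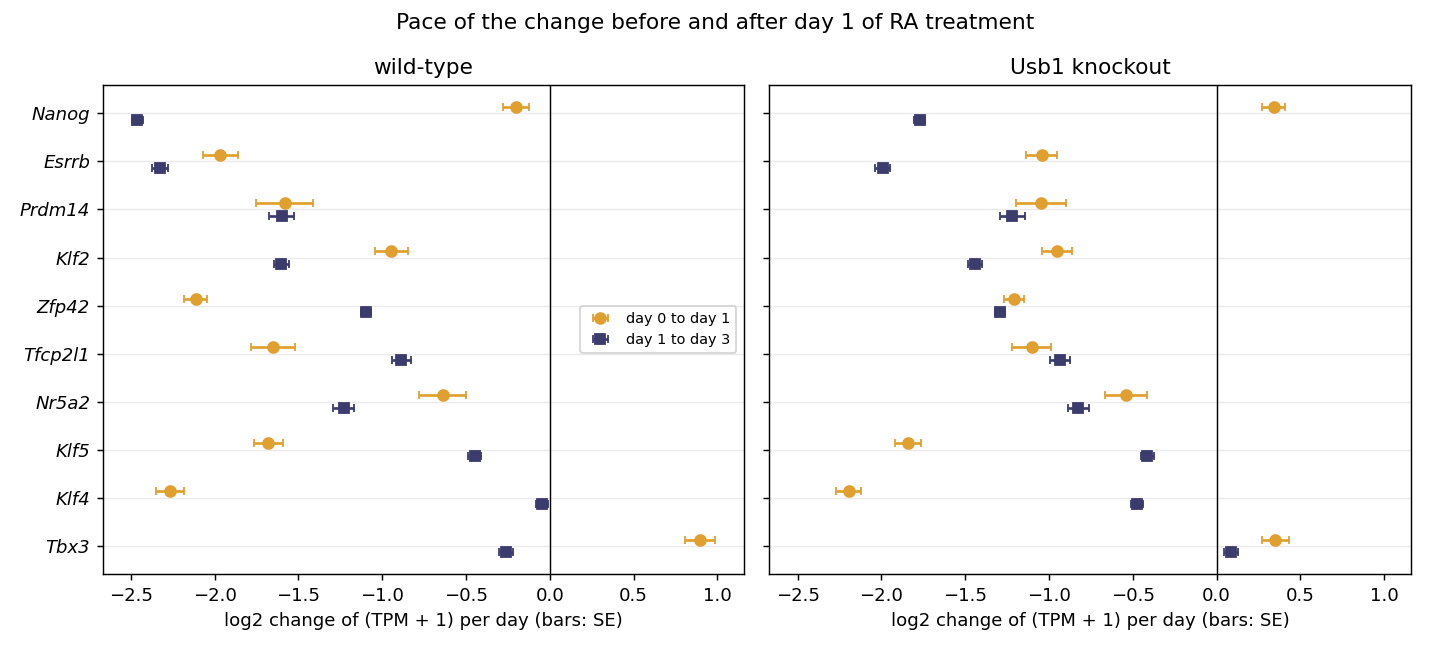
Log2 change of (TPM + 1) per day from day 0 to day 1 (orange circles) and from day 1 to day 3 (dark squares) for each member, with SE bars, in wild-type (left) and Usb1 knockout cells (right). Wild-type Nanog moves from -0.20 to -2.46 per day and Klf4 from -2.27 to -0.05 per day.

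In the Usb1 knockout the same 9 members were called lower at day 3, where 8.04% of all genes were, and the same 6 at day 1, where 2.87% were. By adjusted p alone 10 members passed at day 1 in either direction in each genotype, against 38.0% of all genes in wild-type and 27.7% in knockout cells. From day 1 to day 3, 7 members were called lower, against 5.73% of all genes, and these were again Nanog, Esrrb, Klf2, Prdm14, Nr5a2, Zfp42 and Tfcp2l1. The median change over the members was -1.05 by day 1 and -3.17 by day 3, against 0.02 and 0.03 over all genes. Median shares left were 48.0% and 10.9%, where those of wild-type cells were 32.0% and 7.26%. Fewer than 10% of the day 0 level were left at day 3 for 4 members in the knockout and for 6 in wild-type cells.

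Klf4 and Klf5 had the least left at day 1 in the knockout. Klf4 had 296, 283 and 304 TPM at day 0, 59.9, 69.4 and 61.8 at day 1, and 29.2, 34.5 and 33.7 at day 3. Unlike in wild-type cells it went on falling after day 1, by 0.95 ± 0.07 (limma adjusted p = 9.02e-08). Klf5 had 462, 441 and 449, then 132, 129 and 115, then 63.4, 74.6 and 72.3, and its log2 changes of -1.84 ± 0.08 and -2.67 ± 0.08 stood beside -1.68 and -2.57 in wild-type cells.

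Zfp42, Tfcp2l1, Prdm14 and Esrrb had 43.3%, 46.6%, 47.5% and 48.6% left at day 1 in the knockout, a run of shares in which each neighbour overlapped with the next, up to Klf2 at 51.6%. Zfp42 went from 1218, 1311 and 1272 TPM to 546, 560 and 539 and then to 85.8, 96.7 and 89.8. Tfcp2l1 went from 387, 362 and 381 to 183, 191 and 152 and then to 38.1, 52.4 and 52.3. For these genes all 3 knockout libraries lay above all 3 wild-type libraries on both days of RA.

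Esrrb in the knockout had 488, 484 and 510 TPM at day 0, 246, 258 and 215 at day 1, and 12.6, 16.8 and 13.4 at day 3. Its first-day change of -1.04 ± 0.09 was near the 2-fold threshold and was -0.97 without knockout day 1 replicate 3. Prdm14 had 55.7, 61.7 and 53.5, then 29.0, 25.1 and 27.0, then 4.30, 4.62 and 3.65, and its first-day change of -1.05 ± 0.15 fell short of 2-fold without knockout day 0 replicate 2 (-0.989) and without knockout day 1 replicate 2 (-0.998). At day 3 the lowest knockout library for Prdm14 stood above the highest wild-type library, 3.65 against 1.35 TPM.

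Nanog rose on the first day in the knockout, from 764, 809 and 860 TPM to 1006, 1026 and 1044, a change of 0.34 ± 0.07 (limma adjusted p = 0.00149; 0.26 with adjusted p = 0.0678 when library medians were set equal). It then dropped to 82.0, 86.3 and 93.3 at day 3, a level 3.20 ± 0.07 below day 0 in log2, with 10.8% ± 0.55 left. Klf2 went from 528, 574 and 592 to 303, 277 and 294 and then to 36.8, 40.8 and 38.4. Its day 1 share of 51.6% was nearly that of wild-type cells (51.8%), and the log2 change by day 1 was -0.95 in both.

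Nr5a2 started low in the knockout, at 26.4, 26.2 and 28.8 TPM, and went to 17.7, 19.3 and 18.0 and then to 3.94, 5.60 and 6.20. Tbx3 went from 153, 144 and 154 to 197, 203 and 176 by day 1 (0.35 ± 0.08, limma adjusted p = 0.00395), and to 196, 241 and 215 by day 3, where the last step of 0.17 ± 0.08 did not pass (limma adjusted p = 0.0936). The rise of Tbx3 by day 3 was 0.52 ± 0.08 (limma adjusted p = 5.21e-05). It again was the most abundant member at day 3, with 35.7% of the summed TPM.

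The change of pace was called for 5 members in the knockout. Esrrb (-0.95 ± 0.12) and Klf2 (-0.49 ± 0.12) sped up. Nanog also had a negative value (-2.11 ± 0.09), since it rose on the first day and then fell. Over all genes 12.6% had a call below 0. Klf4 (1.72 ± 0.10) and Klf5 (1.43 ± 0.10) slowed down, where 11.8% had a call above 0. Zfp42 and Tfcp2l1, which slowed in wild-type cells, had values of -0.09 ± 0.08 and 0.17 ± 0.15 here (limma adjusted p = 0.500 and 0.482). By day 1 Klf4 had made 69.8% of its log2 change, Klf5 69.0%, Tfcp2l1 37.2%, Zfp42 31.8%, Prdm14 30.1%, Klf2 24.8%, Nr5a2 24.6% and Esrrb 20.7%.

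Comparing the genotypes on each day asked whether the levels differed between the knockout clone and wild-type cells. At day 0 none of the 10 members was called by adjusted p and 2-fold together, against 3.05% of all genes called in either direction. By limma adjusted p alone 1 member passed, against 11.9% of all genes. This was Nr5a2, at 26.2 to 28.8 TPM in the knockout and 51.7 and 57.9 in wild-type cells (-0.99 ± 0.14, limma adjusted p = 0.000595). It reached 2-fold without knockout day 0 replicate 3 (-1.03) or wild-type day 0 replicate 2 (-1.07), where it was then called. At an unadjusted p below 0.05 the limma test gave 3 members. A limma voom fit on reads recovered from the TPM called 0 at 2-fold. By its adjusted p alone it passed 4, Nr5a2 (-0.92), Tfcp2l1 (0.41), Klf2 (0.38) and Esrrb (0.26). The shares of all genes by unadjusted p and by voom adjusted p alone are not given here, so the counts of 3 and 4 have no background beside them. Nanog and Zfp42 differed by -0.02 ± 0.08 and 0.01 ± 0.07, and their libraries overlapped.

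At day 1 Esrrb was called higher in the knockout (1.09 ± 0.09, limma adjusted p = 3.11e-06), against 0.462% of all genes. By adjusted p alone 6 members were higher, against 3.74% of all genes: Esrrb, Zfp42 (0.91 ± 0.06), Tfcp2l1 (0.86 ± 0.12), Prdm14 (0.67 ± 0.15), Nanog (0.52 ± 0.07) and Klf2 (0.28 ± 0.09). A further 3 members were lower, Nr5a2 (-0.89 ± 0.13), Tbx3 (-0.73 ± 0.08) and Klf5 (-0.25 ± 0.08), against 13.6% of all genes. Over all genes the median difference was -0.13 on that day, so the higher members stood against a downward drift. Setting library medians equal made 3 members called, all higher, and took the difference of Klf5 to -0.03 (limma adjusted p = 0.759). The differences of Klf5 and Klf2 were close to the threshold (limma adjusted p = 0.0447 and 0.0449). Leaving out 1 of the 6 libraries compared gave adjusted p = 0.0454 to 0.203 for Klf5, highest without knockout day 1 replicate 3, and 0.0546 to 0.141 for Klf2, highest without wild-type day 1 replicate 1. Klf4 did not differ beyond its spread (0.04 ± 0.07, limma adjusted p = 0.790). Before RA some members already stood apart. At day 0 all knockout libraries of Esrrb lay above the wild-type ones (484 to 510 against 430 to 450 TPM). So did those of Klf2 (528 to 592 against 458 to 470) and Tfcp2l1 (362 to 387 against 300 to 304). Those of Nr5a2 (26.2 to 28.8 against 51.7 to 57.9) and Tbx3 (144 to 154 against 170 to 173) lay below. The differences at day 1 include these offsets.

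At day 3 Nanog, Esrrb and Prdm14 were called higher in the knockout, against 0.521% of all genes. Nanog stood at 82.0 to 93.3 TPM in the knockout and at 20.2 to 24.2 in wild-type cells (1.90 ± 0.07, limma adjusted p = 4.27e-10). Esrrb stood at 12.6 to 16.8 against 3.18 to 3.82 (1.76 ± 0.09, limma adjusted p = 5.14e-08), and Prdm14 at 3.65 to 4.62 against 0.495 to 1.35 (1.44 ± 0.15, limma adjusted p = 4.27e-05). By adjusted p alone Tfcp2l1 (0.77 ± 0.12), Klf2 (0.60 ± 0.09) and Zfp42 (0.52 ± 0.06) were higher too, 6 members against 3.96% of all genes. Klf4 was the only member lower by that measure (-0.82 ± 0.07, limma adjusted p = 1.14e-05), against 3.56% of all genes, at 29.2 to 34.5 TPM in the knockout and 57.4 to 58.9 in wild-type cells. Nr5a2, Tbx3 and Klf5 did not pass (-0.08 ± 0.13, -0.04 ± 0.08 and -0.18 ± 0.08).

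**Figure D4:**
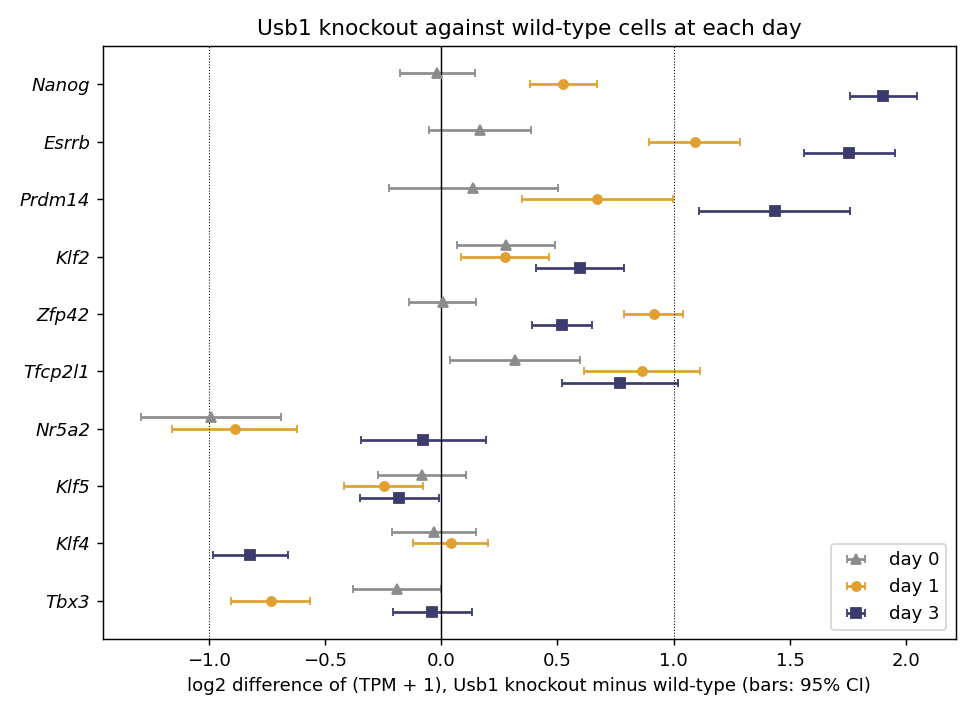
Log2 difference of (TPM + 1) between Usb1 knockout and wild-type cells for each member at day 0 (grey triangles), day 1 (orange circles) and day 3 (dark squares) of RA, with bars for 95% confidence intervals and dotted lines at 2-fold. Nanog goes from -0.02 at day 0 to 1.90 at day 3 and Esrrb from 0.17 to 1.76, whereas Klf4 reaches -0.82.

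Whether the response to RA itself differed between genotypes was asked with an interaction term, the change in the knockout minus that in wild-type cells. It shares its day 0 libraries with the comparisons above. For the first day 0 members had a difference of at least 2-fold that passed in limma, where 0.860% of all genes did. Limma voom on recovered reads also called 0. An unadjusted p below 0.05 was found for 6, a count given here without the share of all genes. By adjusted p alone 4 members passed (Zfp42, Esrrb and Nanog above 0 and Tbx3 below), against 2.23% of all genes. For day 3 against day 0, Nanog (1.92 ± 0.10), Esrrb (1.59 ± 0.14) and Prdm14 (1.30 ± 0.23) were called above 0, against 1.17% of all genes. By adjusted p alone 6 passed, against 6.15%. For day 3 against day 1, Nanog (1.38 ± 0.09) was called above 0, against 1.72% of all genes, and 7 members passed by adjusted p alone, against 7.61%. Expressed as the share of the day 0 level left, the knockout kept 4.02 times as much Prdm14, 3.89 times as much Nanog and 3.63 times as much Esrrb as wild-type cells at day 3, but 0.574 times as much Klf4. For Klf2, Klf5, Tfcp2l1 and Tbx3 the difference for day 3 against day 0 did not pass, with 95% intervals of 0.03 to 0.60, -0.35 to 0.16, 0.08 to 0.82 and -0.10 to 0.41, which does not show that they responded alike.

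Other genes of the naive program were read from fixed lists. Over all genes tested, 3.88% were called lower and 9.99% higher at day 1 in wild-type cells. At day 3 these shares were 9.68% and 16.1% in wild-type cells and 8.04% and 13.8% in the knockout. They are the background for the counts of every list below. Of 15 naive-state genes other than the members, 5 were called lower at day 1 in wild-type cells (Tdh -5.22, Tcl1 -3.20, Nr0b1 -1.68, Tet2 -1.45 and Fbxo15 -1.16) and 14 at day 3, with a median of -3.85. The summed TPM of the 15 was nevertheless higher at day 1 than at day 0. It was 6666 to 7192 after 6079 to 6234 in wild-type cells, and 8064 to 9007 after 6197 to 6643 in the knockout. Tdh, the threonine dehydrogenase of mouse embryonic stem cells, went from a mean of 434 TPM to 10.7 in 1 day. Fgf4, the growth factor that primes cells for differentiation, stood at 323, 239 and 2.90 TPM on days 0, 1 and 3. In the knockout all 15 were called lower at day 3 (median -3.19). The exception in wild-type cells was Dppa3, at no more than 2.72 TPM in any wild-type library.

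The core genes Pou5f1 and Sox2 had first-day changes short of 2-fold. These POU and HMG-box factors at the centre of the network changed by -0.51 and -0.30 in wild-type cells (limma adjusted p = 8.12e-05 and 0.0107). Both were called lower by day 3 in wild-type cells (-4.36 and -2.96) and in the knockout (-3.87 and -2.11). Pou5f1 had 1371 to 1393 TPM at day 0, 956 to 983 at day 1 and 61.2 to 74.7 at day 3 in wild-type cells. At day 3 Pou5f1 and Sox2 were higher in the knockout by adjusted p alone, by 0.49 and 0.95 (limma adjusted p = 0.000315 and 2.95e-06), without reaching 2-fold.

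Among 15 genes of the signalling inputs, 5 were called lower and 4 higher at day 1 in wild-type cells. Of the LIF arm, Socs3 (-3.38), Lifr (-1.54) and Stat3 (-1.22) were called lower. The list also holds Il6st and Jak1 of that arm, whose values are not given here, so these 3 genes do not stand for the arm as a whole. Socs3, the feedback inhibitor that reads out STAT3 activity, had a mean of 240 TPM at day 0, 22.2 at day 1 and 33.5 at day 3. Lifr, the LIF receptor subunit, was back at 79.5 TPM by day 3 from 23.5 at day 1, where it had been 70.3 at day 0. The targets of FGF/ERK signalling Spry4 and Dusp6 had changes of -6.17 and -2.55 by day 3, and the BMP targets Id2 and Id3 of 3.14 and 3.13. At day 3, 5 of the list were lower and 3 higher in wild-type cells, and 2 lower and 5 higher in the knockout; Dusp6 was the only gene of this list called between genotypes at day 3 (1.64 higher in the knockout).

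The Klf family as a whole did not move as one. Of 17 family members 16 were tested, the 3 described above among them; 8 were called lower at day 3 in wild-type cells (Klf2, Klf5, Klf15, Klf4, Klf12, Klf9, Klf8 and Klf16) and 1 higher, Klf6, which rose from a mean of 13.5 to 121 TPM. In the knockout 8 were lower and 3 higher. Relatives of the other members (Esrra, Esrrg, Tfcp2, Ubp1, Tbx2, Tbx4, Tbx5, Yy1, Yy2, Nr5a1 and Prdm1) were tested for 7 of 11. In wild-type cells at day 3 Tbx2 was called higher (3.50) and Prdm1 lower (-2.24), and in the knockout none was lower and 3 were higher.

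Formative and primed genes, which mark the states after the naive one, went in both directions. Of 9, 1 was lower and 3 higher at day 1 in wild-type cells (Foxd3 -4.45, Zic2 2.27, Dnmt3a 2.02 and Sox3 1.47), and 4 were lower and 1 higher at day 3 (Foxd3 -5.35, Pou3f1 -2.66, Otx2 -2.10, Dnmt3b -1.23 and Dnmt3a 1.25). The list's summed TPM in wild-type cells was 248.4 to 259.6 at day 0 and 78.1 to 84.6 at day 3, and 4 were lower and 2 higher in the knockout at day 3.

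Markers of other cell types were read from fixed lists too, and the primitive endoderm sum rose mainly after day 1. All 12 primitive endoderm markers were called higher at day 3 in wild-type cells (median 4.72, with Foxa2 7.20, Gata6 5.42, Sox17 5.14 and Gata4 5.07), 5 of them by day 1, and 11 of 12 in the knockout (median 3.75). Over all genes 16.1%, 9.99% and 13.8% were called higher in these comparisons, in that order. Their summed TPM was 438.8 to 447.0 at day 0, 463.4 to 524.6 at day 1 and 4987 to 5655 at day 3 in wild-type cells, and 269.6 to 317.9, 206.3 to 240.3 and 2315 to 2849 in the knockout, and no marker of the list was at 0 throughout a group. The 5 stem cell markers summed to 7729 to 8235 and 938 to 1158 on days 1 and 3 in wild-type cells and to 9130 to 10120 and 1207 to 1606 in the knockout. Between genotypes 3 of 12 endoderm markers were called lower in the knockout at day 0, 7 at day 1 and 8 at day 3 (median -1.24), and none was higher. Over all genes 1.45%, 1.76% and 0.773% were called lower in the knockout on these days, and 0.521% higher at day 3. The knockout thus had higher Nanog, Esrrb and Prdm14 beside lower endoderm markers at day 3, and the part of these cells in the members' differences was not tested.

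The remaining marker lists were low or mixed. Of 9 neuroectoderm markers 5 were tested, and at day 3 in wild-type cells Tubb3, Sox1 and Neurod1 were lower and Nes higher, the same 4 genes and directions as in the knockout. Their summed TPM at day 3 was 102.9 to 111.9 in wild-type and 136.9 to 157.6 in knockout cells, with Hes5 at 0 in the wild-type libraries and 0 of the list called between genotypes, where Sox1 and Tubb3 passed by adjusted p alone (0.78 each). Of 11 mesoderm and endothelial markers 10 were tested, with 3 higher (Foxf1 5.86, Hand1 4.96 and Twist1 2.48) and 1 lower at day 3 in wild-type cells, and their summed TPM at day 3 was 98.5 to 127 in wild-type and 168 to 184 in knockout cells. Of 7 trophoblast markers 5 were tested, with 4 higher and 1 lower at day 3 and a summed TPM then of 57.2 to 69.1 in wild-type and 131 to 134 in knockout cells, and Ascl2 (1.83), Tfap2c (1.76) and Hand1 (1.08) were called higher in the knockout at day 3, where Tpbpa was at 0 in both genotypes. Germ cell markers, 8 of 8 tested, held Stra8, a direct RA target, at a mean of 25.2 TPM at day 0 and 869 at day 1 in wild-type cells. Of the list 3 were lower and 2 higher at day 3 in wild-type cells. The summed TPM was 979 to 1045 in wild-type and 528 to 570 in knockout cells at day 1, where Stra8 was called lower in the knockout, and 372 to 401 and 318 to 344 at day 3, where 0 of the list were called lower and 2 higher in the knockout (Tfap2c and Prdm1). The 2-cell-like markers, 3 of 6 tested, summed to no more than 6.999 TPM in any library, with 1 called higher at day 3 in wild-type cells. The part of these cells in the members' values was not tested either.

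**Figure D5:**
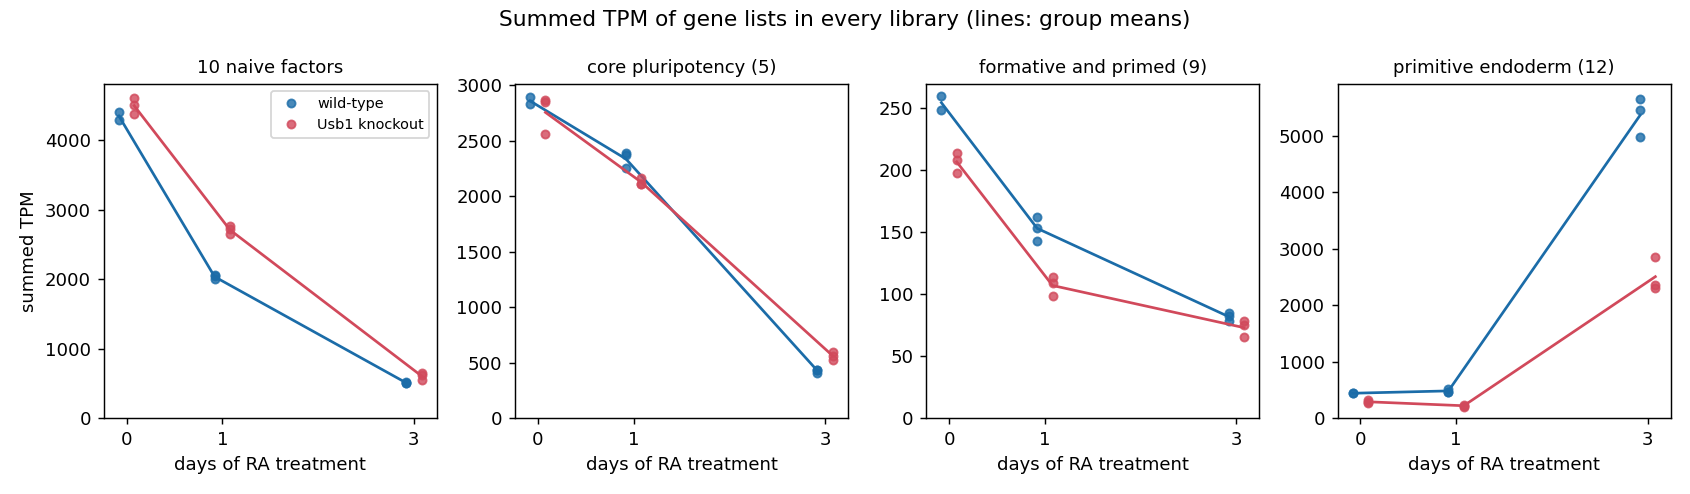
Summed TPM of the 10 members, the core pluripotency list, the formative and primed list and the primitive endoderm list in each library against days of RA, with lines through group means, wild-type in blue and Usb1 knockout in red. The members go from 4292 to 4398 at day 0 to 501 to 520 at day 3 in wild-type cells, where the primitive endoderm list stands at 4987 to 5655, and the knockout ends at 552 to 653 for the members and 2315 to 2849 for that list.

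The members differed in how closely their courses tracked each other. Over the 17 libraries, which share the same 6 groups, Pearson's r of log2(TPM + 1) was 0.994 between Esrrb and Prdm14, 0.990 between Tfcp2l1 and Zfp42, and 0.971 between Klf4 and Klf5. The pair Nanog and Klf4 was the least alike among the 9 members that fell (0.530), and Tbx3 had a negative r with every other member (-0.63 with Klf4 to -0.08 with Nr5a2). Among 11906 genes with a mean of at least 10 TPM, those most like Nanog were Cth (0.993), Bckdhb (0.991) and Fgf4 (0.991). Those most like Esrrb were Etv4 (0.997) and Nasp (0.993), and Etv4 was also the closest to Prdm14 (0.991). For Klf5 they were Fzd5, Zscan10 and Sgk1 (0.995, 0.989 and 0.989), for Klf4 Gm46332, Baiap2 and Dalrd3 (0.989, 0.987 and 0.982), for Klf2 Hmga1b, Nr0b1 and Fkbp5 (0.995, 0.995 and 0.994), and for Tfcp2l1 Parp1, Gart and AU018091 (0.995, 0.993 and 0.990). Tbx3 had the loosest neighbours, Shisa2, Dgkz and Zswim6 (0.961 each).

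For Zfp42 the closest gene was its pseudogene Zfp42-ps1 (0.996), at chromosome 15, 93679160 to 93679649. Over a stretch of 266 bases it is 98.1% identical to Zfp42, and its reads amounted to 6.20% to 10.03% of those of Zfp42 in the 17 libraries, so reads may have been divided between them by the authors' counting and the level of Zfp42 is uncertain to about that extent. The pseudogenes of Nanog held at most 2 reads (Nanog-ps1) and none (Nanog-ps2) in any library. A stretch of 190 bases of Nanog is also 97.4% identical to the gene Eapp, and whether reads were divided between them was not tested. Tfcp2l1 encloses the small gene Gm23497 on the same strand, which matches 130 bases of its exons.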

How the data were processed

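RNA-seq of total RNA from 17 libraries in 6 groups of genotype and day was analysed. The authors deposited TPM for 54532 genes, computed from gene length and counted reads; the submitters' processing notes name HISAT2 2.1.0, StringTie 1.3.6 and GRCm38.p6, and the strand setting of counting was not given in the sources used here. Groups were taken from the sample labels.

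From the deposited TPM, log2(TPM + 1) was fitted with limma 3.58.1 (R 4.3.3, trended variance, 6 group means, Benjamini-Hochberg adjustment) over 21871 genes that reached a TPM of 1 in 2 or more libraries. The pseudocount understates changes of low genes. A call needed adjusted p below 0.05 and 2-fold, or adjusted p alone for a change of pace. In all, 14 comparisons were made: 6 of RA days, 3 of genotypes, 3 of the difference between genotypes in the RA response and 2 of pace. The script was tested on simulated data. Multiplying TPM by GENCODE M21 exon length gave values whole within 0.01 for 95.9% to 96.7% of genes above 0, and these reads were tested with voom as an alternative. Exon lengths were found for 54495 genes.

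The members and lists were chosen with earlier results of these data known. Named were the 10 members, Usb1, up to 4 called genes of each list with the largest change in the comparison described, and the 3 genes with the highest Pearson r with a member among those with a group mean of at least 10 TPM. Other list genes in the text (such as Fbxo15, Dppa3, Lifr, Stat3, Dusp6, Dnmt3b, Stra8, the further Klf genes and genes that missed the call) were picked after their values were seen. A few genes that the rule would name are not reported here. Promoter windows came from RefSeq, GRCm38.p6. The alternatives tried were other pseudocount, filters, scalings, call rule, variance model, libraries in the fit, a replicate block, recovered reads and leaving out each library. Tables and plots were made in Python 3.11.15 (pandas 2.3.3, numpy 2.4.6; plots in matplotlib 3.10.9).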

Additional observations from a re-analysis of the deposited data

Results flagged for a closer look

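The change under RA differed between the genotypes by limma adjusted p below 0.05 for 4 members over the first day, for 6 from day 0 to day 3 and for 7 from day 1 to day 3. Each value here is the log2 change in the knockout minus that in wild-type cells.

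Over the first day the difference was 0.54 for Nanog (limma adjusted p = 0.0150), 0.92 for Esrrb (0.00417), 0.91 for Zfp42 (0.000319) and -0.54 for Tbx3 (0.0317). That of Tbx3 passed no longer in 7 of the 17 fits that left out a library, with adjusted p = 0.111 without wild-type day 0 replicate 1.

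From day 0 to day 3 the difference was 1.92 for Nanog (limma adjusted p = 9.49e-08), 1.59 for Esrrb (2.74e-05), 1.30 for Prdm14 (0.00447), 0.91 for Nr5a2 (0.0124), 0.51 for Zfp42 (0.00464) and -0.79 for Klf4 (0.00118). That of Nr5a2 had adjusted p = 0.0567 without wild-type day 0 replicate 1, and Nr5a2 was already lower in the knockout at day 0. That of Zfp42 had adjusted p = 0.093 with equal library medians.

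From day 1 to day 3 the difference was 1.38 for Nanog (limma adjusted p = 1.99e-06), 0.67 for Esrrb (0.00662), 0.76 for Prdm14 (0.0442), 0.81 for Nr5a2 (0.0131), 0.70 for Tbx3 (0.00177), -0.86 for Klf4 (0.000231) and -0.40 for Zfp42 (0.0118). That of Prdm14 passed no longer in 12 of the 17 fits that left out a library, with adjusted p = 0.120 without wild-type day 1 replicate 1.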

How the results depend on the processing

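Of the alternatives to the members' log2 changes, 3647 kept direction and side of the threshold, 69 gained and 28 lost the call and 36 turned direction; of the shares of day 0 left, 280 moved by less than the spread between libraries and 20 by more. The members called lower under RA at day 3 stayed at 9 in both genotypes in every fit that left out a library. By adjusted p alone the members called were 10 at day 1 in wild-type and 10 in knockout cells (38.0% and 27.7% of all genes), 1, 9 and 7 between genotypes at days 0, 1 and 3, and 4, 6 and 7 for the difference between genotypes (day 1 against 0, 3 against 0 and 3 against 1); with a further difference of 1 per day, the change of pace had 5 in wild-type and 3 in knockout cells. For the genotypes at day 0, a pseudocount of 0.1 gave 1, and leaving out a library 0 to 1. At day 1 equal medians and recovered reads gave 3 each. For the difference from day 0 to day 1, quantile normalization and equal medians gave 2 each, and from day 1 to day 3 a pseudocount of 0.1, quantile normalization, equal medians and recovered reads gave 2 each. The cause was not tested.

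Directions turned for values that had passed no test. With quantile normalization these were the genotypes at day 0 for Zfp42 (-0.11), the first-day difference for Klf2 (0.0647) and the wild-type pace for Prdm14 (0.044). With equal medians they were Tbx3 from day 1 to day 3 in the knockout (-0.0256), the genotypes at day 0 for Nanog (0.0937), Klf4 (0.0799) and Klf5 (0.0271), the first-day difference for Klf2 (0.0997), the day 1 to day 3 difference for Klf5 (-0.13) and the wild-type pace for Prdm14 (0.17). On recovered reads they were the genotypes at day 0 for Nanog (0.0794), Klf4 (0.0671) and Klf5 (0.0143), the first-day difference for Klf2 (0.0612) and the day 1 to day 3 difference for Klf5 (-0.0887). Leaving out a library gave, for the genotypes at day 0, -0.0600 to 0.0249 for Nanog, -0.0204 to 0.0343 for Zfp42, -0.14 to 0.0761 for Klf4 and -0.19 to 0.0261 for Klf5, at day 1 -0.0218 to 0.0828 for Klf4, and at day 3 -0.11 to 0.0344 for Tbx3 and -0.19 to 0.0825 for Nr5a2. For the first-day difference it gave -0.0524 to 0.0316 for Klf2 and -0.0356 to 0.18 for Klf4, for day 3 against 0 -0.21 to 0.0127 for Klf5, for day 3 against 1 -0.19 to 0.052 for Tfcp2l1, and for the wild-type pace -0.14 to 0.16 for Prdm14.

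Equal medians moved the split of all calls: 1530 of 2784 were higher at day 1 in wild-type cells (2185 of 3033 as reported), 2804 of 5626 at day 3 (3522 of 5640), 727 of 1524 and 2134 of 5087 in the knockout (891 of 1519 and 3023 of 4782), and 534 of 760 and 187 of 362 between genotypes at days 0 and 1 (350 of 668 and 101 of 485). Replicate numbers did not pair the libraries: of 40 same-numbered pairs 1 correlated above 0.1 (-0.13 to 0.12). With the replicate block 1 member was called between genotypes at day 0, and all calls there went from 668 to 610. Wild-type day 0 rested on 2 libraries, and Prdm14 at day 3 on few reads.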
